A study of Mus musculus with 12 samples.

Results

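The genes described here are the neighbours of Syt14 on mouse chromosome 1: every gene row whose annotated position lies within 10 Mb either side of Syt14 (chr1:192891233-193035775, GRCm38) and that reached 1 CPM (a count scaled to the size of its library) in at least 3 of the 12 libraries. Syt14 itself, Kcnh1, Hsd11b1 and Prox1 were left out by the rule. Of 232 annotated genes in the window, 73 were members, 155 stayed below the level and 4 were left out. The members were 73 of the 16207 genes that reached this level among the 54446 gene rows of the series. Apart from the 4 genes left out by name, the rule used position and level, not genotype. The members were nevertheless chosen with earlier results of these data known. On the lower-coordinate side lay 59 members, as far as 9.99 Mb from Syt14, and on the higher-coordinate side lay 14, as far as 2.06 Mb, where the window runs past the last annotated gene, which ended at position 195323493. Protein-coding genes made up 56 members, and 17 were pseudogenes, long noncoding RNAs or other unclassified transcripts. The rows just inside the level were Gm2367, Gm36388, Traf5 and Cenpf, with 1.05, 1.07, 1.15 and 1.17 CPM in their third-highest library. The rows just outside were Gm37785, Gm32200, Gm37132 and Hlx, with 0.980, 0.964, 0.951 and 0.918 CPM.

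A gene altered in mice is passed on together with the stretch of chromosome around it. Neighbouring genes can therefore carry sequence differences of their own or respond to the altered allele nearby, and the neighbourhood of a targeted gene is often examined separately from the rest of the genome. Syt14 encodes a synaptotagmin, a family of membrane trafficking proteins with paired C2 domains, and its own C2 domains are thought not to bind calcium.

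RNA sequencing was done on 12 libraries: hippocampus from 3 Syt14 knockout (Syt14-/-) mice, hippocampus from 3 wild-type (Syt14+/+) mice, cerebellum from the same 3 knockout mice and cerebellum from the same 3 wild-type mice. The study asked what Syt14 does in mood disorder and motor coordination. The strain, age and sex of the animals, how the allele was made, which exons it removes and the breeding of the controls are not stated in the labels. Libraries were made from poly(A)-selected RNA by a strand-specific method and held 24355572 to 34971359 counts, of which the members took 0.221 to 0.226% in hippocampus and 0.229 to 0.240% in cerebellum. Levels below are CPM scaled by TMM factors (a correction for library composition), with the SD over 3 animals. Fold changes are log2 values with their SE from edgeR's quasi-likelihood fit. The defining markers matched the labelled tissues: the summed CPM of 5 hippocampal markers was 814 to 972 in hippocampus and 197 to 236 in cerebellum, and that of 5 cerebellar markers was 5.50 to 16.3 in hippocampus and 1569 to 1806 in cerebellum. The names of the count columns carried one tag in hippocampus and another in cerebellum, so that tag and tissue cannot be told apart. In bulk tissue, fewer cells of a type and less RNA per cell cannot be told apart either.

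Reference sequences of 3 promoters show the starts of the members on which the comparisons below turn. They run from 250 bases before to 50 bases after the annotated start and come from RefSeq on GRCm38.p6, where 59 of the 73 members had an entry by symbol or synonym. Sertad4, a SERTA-domain gene of the transcription list, is the nearest protein-coding neighbour on the lower side and had the smallest genotype p in hippocampus. The first start listed for it (chr1:192855703-192856002, minus strand) is printed with every GGGCGG, the GC box, in capitals.
Sertad4: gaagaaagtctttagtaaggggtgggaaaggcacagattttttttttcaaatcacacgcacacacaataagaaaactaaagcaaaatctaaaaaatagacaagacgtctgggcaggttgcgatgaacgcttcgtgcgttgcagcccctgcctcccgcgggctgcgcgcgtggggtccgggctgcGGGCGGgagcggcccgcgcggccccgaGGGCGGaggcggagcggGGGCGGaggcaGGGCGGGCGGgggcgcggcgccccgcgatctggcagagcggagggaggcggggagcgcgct
Nek2, a mitotic kinase of the centrosome, had the smallest genotype p in cerebellum. Its promoter (chr1:191821223-191821522, plus strand) is printed with CCAAT boxes in capitals.
Nek2: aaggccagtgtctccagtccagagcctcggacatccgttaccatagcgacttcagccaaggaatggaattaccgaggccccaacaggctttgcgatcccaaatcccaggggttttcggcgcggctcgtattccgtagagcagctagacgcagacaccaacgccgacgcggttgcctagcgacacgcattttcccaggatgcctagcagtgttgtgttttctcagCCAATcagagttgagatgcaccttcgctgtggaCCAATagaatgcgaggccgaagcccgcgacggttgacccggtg
Dtl, the substrate receptor of a ubiquitin ligase active during DNA replication, starts 92 bases from Ints7, a subunit of the Integrator complex on the other strand, so that the window of Dtl (chr1:191575495-191575794, minus strand) holds both starts. In capitals are CCAAT, the cyclic AMP response element TGACGTCA and the E2F-type element TTTGGCGC, in that order.
Dtl: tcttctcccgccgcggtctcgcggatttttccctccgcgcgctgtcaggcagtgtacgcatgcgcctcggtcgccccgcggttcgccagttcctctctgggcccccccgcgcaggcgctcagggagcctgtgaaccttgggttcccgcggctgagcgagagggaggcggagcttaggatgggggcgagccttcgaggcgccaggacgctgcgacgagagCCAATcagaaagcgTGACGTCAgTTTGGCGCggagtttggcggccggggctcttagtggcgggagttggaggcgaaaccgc
Motifs were searched on both strands of all 32851 RefSeq promoter windows. GGGCGG stood in 35.7% of them and had 5 matches at Sertad4, a pair of which overlap. CCAAT stood in 37.4% and had 2 matches at Nek2 and 1 at Dtl. TGACGTCA stood in 1.79% and TTTGGCGC in 0.514% of all windows, and each had 1 match at Dtl. The Dtl matches began 31, 17 and 8 bases before its start, which places them between the starts of Dtl and Ints7. These matches are descriptions of the letters only.

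Of the 9 microRNA hairpins that RefSeq places in the window, 5 lay inside a member on its own strand. Mir29b-2 (chr1:195037040-195037120) and Mir29c (chr1:195037547-195037634) both lay within A330023F24Rik, a noncoding transcript above Syt14 that is described below because its knockout and wild-type hippocampi did not overlap. Their mature 3p forms share the seed, bases 2 to 8, which is in capitals.
mmu-miR-29b-3p: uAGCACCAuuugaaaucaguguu
mmu-miR-29c-3p: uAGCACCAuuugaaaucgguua
Both hairpin rows had a count of 0 in all 12 libraries, and poly(A)-selected libraries of long fragments do not measure mature microRNAs.

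Syt14 was lower in every knockout library than in any wild-type library of the same tissue. In hippocampus it had 29.2, 28.0 and 30.6 CPM in knockout animals and 38.5, 38.9 and 38.2 CPM in wild-type animals (log2 fold change -0.39 ± 0.062, edgeR adjusted p = 0.686). In cerebellum it had 30.6, 30.7 and 30.3 CPM in knockout animals and 33.8, 33.4 and 38.2 CPM in wild-type animals (log2 fold change -0.20 ± 0.063, edgeR adjusted p = 0.644). A two-sided exact permutation test gave p = 0.1 in each tissue, the smallest that 3 animals against 3 allow. In hippocampus Syt14 was called by DESeq2 (adjusted p = 0.0196) and by edgeR with no filter on low counts (adjusted p = 3.22e-04). The count runs over all exons of the gene, and since the removed exons are not given, it does not show how much intact transcript was left.

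No member passed the genotype test in either tissue. In hippocampus, 0 of 73 members were called at an adjusted p under 0.05 (edgeR, Benjamini-Hochberg over 17693 genes), where the share called among all genes tested was 0%. At an unadjusted p under 0.05 there were 4 members, or 5.48%, beside 4.38% of the genes outside the window at the same level. Of these 4, 1 was higher and 3 were lower in knockout, where 2.57% of outside genes were higher and 1.81% lower. By distance, 3 of the 4 were among the 16 members within 1 Mb of Syt14 and 1 lay at 1 to 2.5 Mb. In cerebellum, 0 of 71 members were called, beside 0.0113% of 17733 genes, and the unadjusted threshold was passed by 4, or 5.63%, beside 6.99% outside. Here 3 were higher and 1 was lower in knockout, where 3.99% of outside genes were higher and 3% lower. By distance, 0 of the 16 members within 1 Mb passed in cerebellum, while 2 lay at 1 to 2.5 Mb and 2 at 5 to 10 Mb. Dtl and Gm8407 were not tested in cerebellum, having too few counts there. DESeq2 and limma-voom also called 0 members in each tissue. Over the same genes DESeq2 called 4 in hippocampus and 37 in cerebellum, and limma-voom 0 in hippocampus and 2 in cerebellum. Adding the counts of both tissues of each animal, which makes the animal the unit, gave 0 of 73 calls (0% of 20143 genes) and 5 members at an unadjusted p under 0.05, or 6.85% beside 7.37% outside.

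The protein-coding genes next to Syt14 on each side had separate knockout and wild-type values in hippocampus, although neither passed the adjusted test. The groups were also separate in hippocampus for 9.77% of genes outside the window at the same level, with 4.69% lower in knockout. Sertad4, whose nearest edge lies 0.0355 Mb below Syt14, had 19.8, 16.2 and 18.8 CPM in knockout hippocampi and 23.5, 24.4 and 21.8 CPM in wild-type hippocampi. All 3 knockout values lay under the lowest wild-type value, with a log2 fold change of -0.35 ± 0.091 (edgeR p = 0.00237, adjusted p = 0.995; exact permutation p = 0.1). In cerebellum Sertad4 had 15.7, 13.2 and 14.2 CPM in knockout and 13.4, 12.5 and 14.5 CPM in wild-type animals, ranges that overlapped (log2 fold change 0.095 ± 0.095). Its genotype effect in hippocampus minus that in cerebellum was -0.45 ± 0.13 on the log2 scale (edgeR adjusted p = 0.808), so the difference between tissues was not called. Diexf, named Utp25 in RefSeq and needed for making the small ribosomal subunit, lies 0.0553 Mb above Syt14. It had 20.5, 19.2 and 21.5 CPM in knockout and 23.0, 22.1 and 23.7 CPM in wild-type hippocampi, again without overlap (log2 fold change -0.17 ± 0.075, adjusted p = 0.995 by edgeR). In cerebellum the Diexf values were 22.1, 22.1 and 23.9 CPM in knockout and 22.1, 22.7 and 21.2 CPM in wild-type animals, which overlapped. Both are given here because of their position.

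The other near neighbours had overlapping genotypes in hippocampus. Gm2367, the closest annotated row at 0.00219 Mb, had 1.01, 0.778 and 1.10 CPM in knockout and 1.26, 0.836 and 1.42 CPM in wild-type hippocampi. Hhat, which attaches palmitate to hedgehog proteins, had 1.13, 0.955 and 1.21 CPM in knockout and 0.865, 0.418 and 1.54 CPM in wild-type hippocampi, the wild-type animals enclosing the knockout ones. Gm10516 is antisense to Rcor3, a corepressor of the CoREST family, and the strand setting of the counting is not given, so their reads cannot be told apart where they overlap. Gm10516 had 5.83, 4.60 and 5.13 CPM in knockout and 7.36, 5.55 and 6.81 CPM in wild-type hippocampi, overlapping narrowly (log2 fold change -0.34 ± 0.15, adjusted p = 0.995 by edgeR). Rcor3 had 34.8, 34.1 and 31.1 CPM in knockout and 34.3, 32.8 and 33.3 CPM in wild-type hippocampi, with a log2 fold change of -0.0058 ± 0.066. Farther out than Diexf on the higher side lie A130010J15Rik and a pair of genes best known outside neurons: Lamb3, a laminin chain of basement membranes, and G0s2, an inhibitor of fat breakdown. Their hippocampal log2 fold changes were 0.069 ± 0.14 for A130010J15Rik, -0.16 ± 0.20 for Lamb3 and -0.11 ± 0.19 for G0s2. In cerebellum the log2 fold changes of these near neighbours ran from -0.31 ± 0.15 for G0s2 to 0.13 ± 0.24 for Hhat, with -0.12 ± 0.12 for Gm10516, -0.10 ± 0.068 for Rcor3 and -0.26 ± 0.15 for Lamb3, and none was called.

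**Figure D1:**
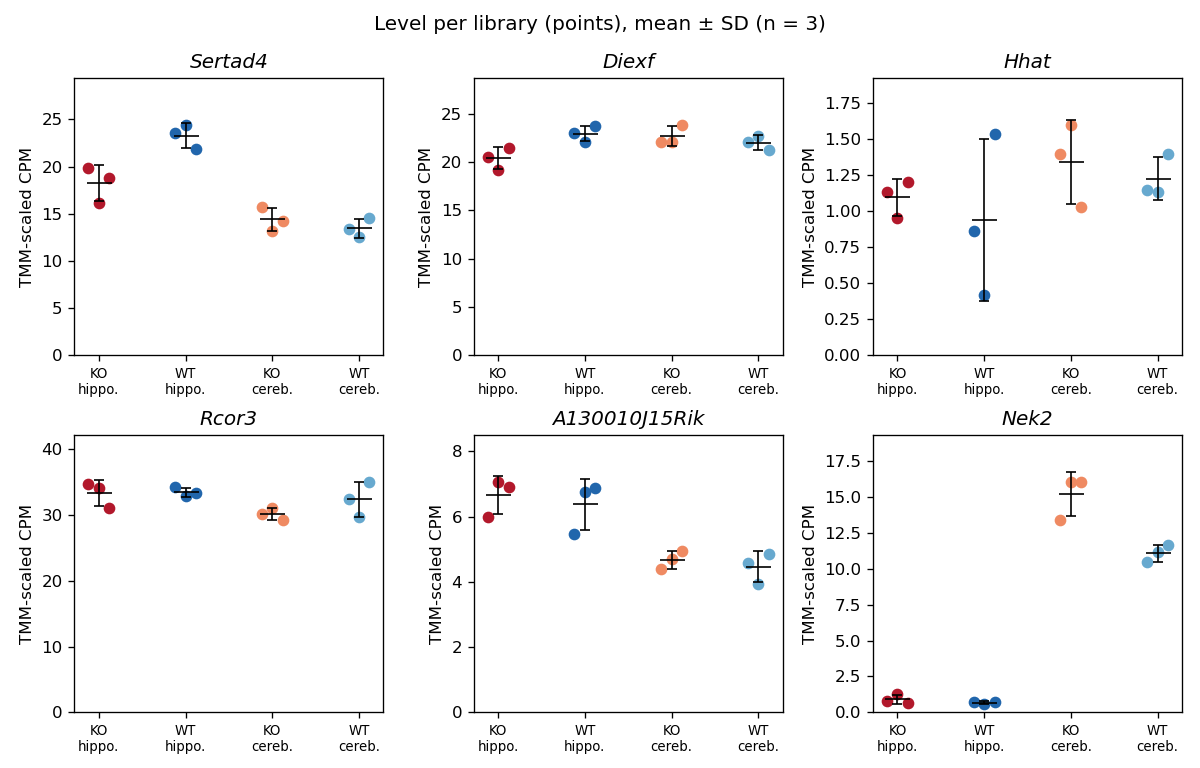
Level of Sertad4, Diexf, Hhat, Rcor3, A130010J15Rik and Nek2 in each library (points, TMM-scaled CPM on axes from 0), by genotype and tissue, with the mean ± SD of 3 animals. Knockout and wild-type points separate for Sertad4 and Diexf in hippocampus and for Nek2 in cerebellum, and overlap in the other panels and tissues.

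Over the whole neighbourhood, the groups did not overlap in hippocampus for 9 of 73 members, 3 higher and 6 lower in knockout, a share of 12.3% beside 9.77% of genes outside the window (5.08% higher and 4.69% lower). With scaling factors from the hippocampal libraries alone, an alternative chosen after seeing the data, 6 of 73 members did not overlap, beside 9.75% of outside genes. The higher ones were Disp1, the pseudogene Pdcd5-ps and A330023F24Rik, and the lower ones Iars2, Eprs, Gpatch2, Smyd2, Sertad4 and Diexf, of which Pdcd5-ps and Gpatch2 are named after their values were seen. The largest of the 9 log2 fold changes was 0.41 ± 0.33, of Pdcd5-ps, and Gpatch2 had -0.078 ± 0.068. A330023F24Rik, the noncoding host of the miR-29 hairpins shown above, was chosen after its values were seen. It had 82.3, 78.9 and 71.5 CPM in knockout and 60.1, 71.4 and 63.1 CPM in wild-type hippocampi (log2 fold change 0.26 ± 0.072, adjusted p = 0.995 by edgeR). The lowest knockout value lay just above the highest wild-type value. In cerebellum its values were 88.9, 100.4 and 94.6 CPM in knockout and 84.8, 106 and 93.2 CPM in wild-type animals, with a log2 fold change of -0.0033 ± 0.080. It overlaps Cd46 on the other strand, and Cd46, an inhibitor of complement, had a hippocampal log2 fold change of -0.12 ± 0.095. Disp1, which releases hedgehog proteins from the cell, averaged 5.43 ± 0.457 CPM in knockout and 4.59 ± 0.232 CPM in wild-type hippocampi. Smyd2, a lysine methyltransferase, averaged 30.6 ± 0.800 CPM in knockout and 32.9 ± 0.923 CPM in wild-type hippocampi. Eprs and Iars2, a pair of tRNA synthetases of which Iars2 acts in mitochondria, had log2 fold changes of -0.057 ± 0.044 and -0.071 ± 0.049 in hippocampus, also without overlap but very narrowly. For Eprs the highest knockout value was 107.56 CPM and the lowest wild-type value 107.62 CPM, and for Iars2 they were 64.25 and 64.38 CPM. Slc30a10, a manganese exporter, had 0.12 ± 0.082, and Traf5, an adaptor of tumour necrosis factor receptors, 0.45 ± 0.30 from few counts, both with overlapping groups.

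In cerebellum Nek2 had the smallest genotype p of the members. It had 13.4, 16.1 and 16.0 CPM in knockout and 10.5, 11.1 and 11.6 CPM in wild-type cerebella, and the lowest knockout value exceeded the highest wild-type value (log2 fold change 0.45 ± 0.098, adjusted p = 0.417 by edgeR). Its adjusted p over the alternative settings ran from 0.00394, with no filter on low counts, to 0.906, and was 0.0794 by DESeq2. In hippocampus Nek2 was at 0.797, 1.27 and 0.689 CPM in knockout and 0.747, 0.608 and 0.709 CPM in wild-type animals, overlapping (log2 fold change 0.42 ± 0.36). Marc2, a mitochondrial enzyme that reduces N-hydroxylated compounds, had 29.7, 28.6 and 26.9 CPM in knockout and 32.9, 34.2 and 30.9 CPM in wild-type cerebella (log2 fold change -0.20 ± 0.066). Susd4, a membrane regulator of complement, averaged 94.3 ± 3.79 CPM in knockout and 85.5 ± 3.97 CPM in wild-type cerebella (log2 fold change 0.14 ± 0.050), and Nenf, a secreted neurotrophic factor, had a log2 fold change of 0.18 ± 0.073. The edgeR adjusted p was 0.655 for Marc2, 0.691 for Susd4 and 0.714 for Nenf. In all, 8 of 71 members did not overlap in cerebellum, 5 higher and 3 lower in knockout, a share of 11.3% beside 12% outside the window (6.59% higher and 5.4% lower). They were Susd4, Taf1a, Lyplal1, Nenf and Nek2 on the higher side and Marc2, Gm2061 and Gm16897 on the lower, of which Taf1a, Lyplal1, Gm2061 and Gm16897 are named after their values were seen. The log2 fold change was -0.51 ± 0.24 for Gm2061 and -0.59 ± 0.30 for Gm16897. Atf3, a stress-induced transcription factor, had 1.66, 2.05 and 2.72 CPM in knockout and 1.70, 1.59 and 1.34 CPM in wild-type cerebella, and G0s2 had 3.24, 3.03 and 3.99 CPM in knockout and 4.63, 4.15 and 3.95 CPM in wild-type cerebella. Both sets overlapped.

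The largest cerebellar fold change belonged to Rd3, a regulator of guanylate cyclase best known from photoreceptors, and its counts moved with choroid plexus markers. Rd3 had 15, 37 and 1 counts in knockout and 33, 59 and 39 counts in wild-type cerebella (log2 fold change -1.15 ± 0.61, edgeR adjusted p = 0.768). The summed CPM of 5 choroid plexus markers in the same libraries was 960, 1756 and 25.6 in knockout and 1925, 2632 and 1037 in wild-type cerebella. The library with 1 Rd3 count was also the one with the lowest marker sum, and the part of choroid plexus in the Rd3 result was not tested. Rd3 was refitted without single libraries after its values had been seen: its log2 fold change was -0.57 without that library (edgeR adjusted p = 0.656) and -2.26 without knockout animal 2 (edgeR adjusted p = 0.519), and -1.24 to -1.01 without any of the other 4. With no filter on low counts, a setting that called 417 of 32360 genes in cerebellum, Rd3 was called (log2 fold change -1.15, edgeR adjusted p = 0.0212). The summed CPM of 6 brainstem markers was 18.6, 35.1 and 1.20 in knockout and 5.35, 1.40 and 1.98 in wild-type cerebella. That of 6 microglial markers was 87.5 to 90.9 in knockout and 74.0 to 76.1 in wild-type cerebella, without overlap. In hippocampus the microglial sums overlapped, at 193 to 216 CPM in knockout and 197 to 223 CPM in wild-type animals. In hippocampus, the sum of 7 meningeal markers was 62.7 to 82.4 CPM in knockout and 79.0 to 138 CPM in wild-type animals, and that of 6 endothelial and pericyte markers was 229 to 254 CPM in knockout and 269 to 304 CPM in wild-type animals.

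The genotype effects of the members were set side by side across the tissues. No member had non-overlapping groups in the same direction in both tissues, 0 of 71, where 0.786% of outside genes did. The log2 fold changes had the same sign in both tissues for 36 of 71 members, or 50.7%, beside 52.3% of outside genes. Their Pearson correlation across members was 0.17 and Spearman's rho 0.22, beside 0.077 and 0.076 over 15523 outside genes, as a description over genes that are not independent and whose tissues come from the same animals but separate libraries. When the genotype effects of the tissues were subtracted, 0 of 73 members were called (edgeR), beside 0.0105% of 19027 genes, and the unadjusted threshold was passed by 5, or 6.85%, beside 5.27% outside.

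**Figure D2:**
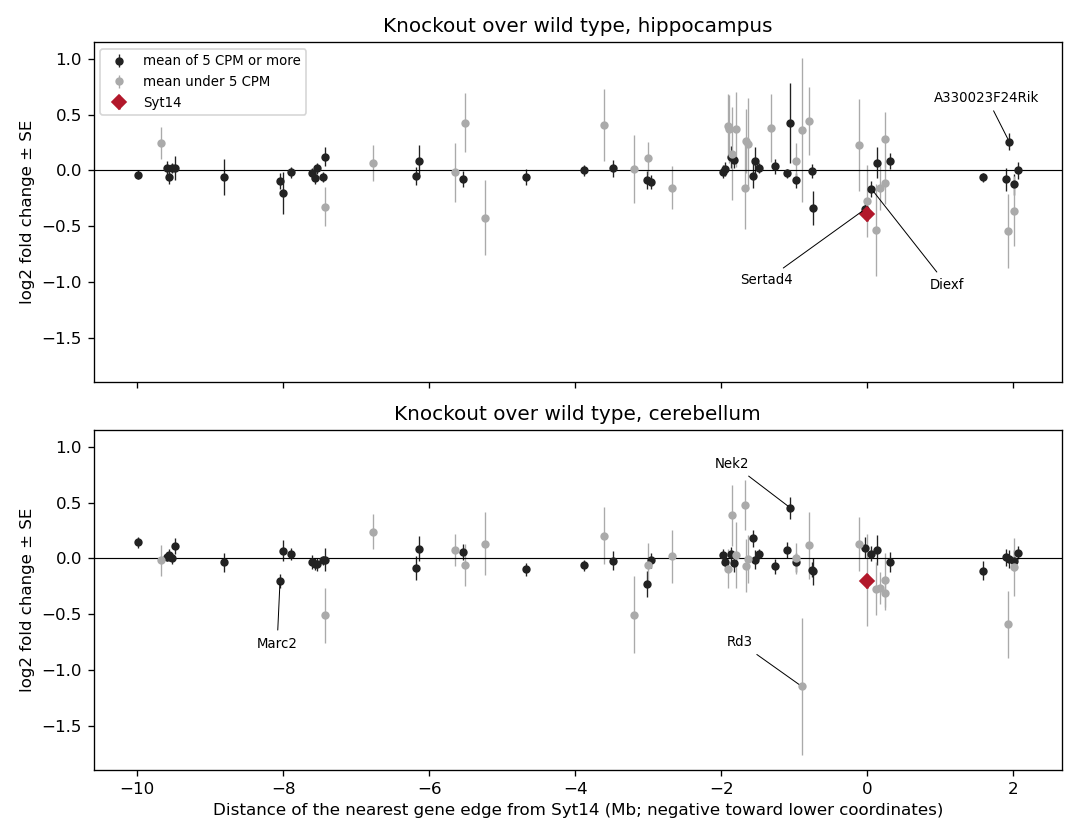
Log2 fold change of knockout over wild type with its SE (vertical axis) for each member against its distance from Syt14 in Mb (horizontal axis), in hippocampus (top) and cerebellum (bottom). Black points average 5 CPM or more over 12 libraries, grey points less, and the diamond is Syt14. Black points lie closer to zero than grey points, and more of the grey points are found near Syt14.

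The members' absolute fold changes were slightly larger than those of other genes in hippocampus and about equal to them in cerebellum. The median absolute log2 fold change was 0.094 over 73 members, beside 0.064 over 15862 genes outside the window, in hippocampus. The median level of these members was 16.3 CPM and that of the outside genes 22.3 CPM. In cerebellum it was 0.070 over 71 members, beside 0.068 over 15789 genes. Among the 47 members that reached 5 CPM in at least 3 of the 12 libraries, it was 0.069 beside 0.052 in hippocampus and 0.047 beside 0.056 in cerebellum. The intervals set a bound on what could have been missed: the 95% interval of the fold change stayed within 0.5 of zero on the log2 scale for 41 of these 47 members in hippocampus and 45 of 47 in cerebellum. The exceptions were Disp1, C130074G19Rik, Nek2, Gm10516, Sertad4 and Lamb3 in hippocampus and Nek2 and Lamb3 in cerebellum.

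By distance, the median absolute log2 fold change in hippocampus was 0.20 for 16 members within 1 Mb of Syt14, 0.12 for 25 members at 1 to 2.5 Mb, 0.087 for 9 members at 2.5 to 5 Mb and 0.063 for 23 members at 5 to 10 Mb. In cerebellum the same bins gave 0.12, 0.052, 0.064 and 0.056. Level moved with distance too: the median level was 4.005 CPM within 1 Mb and 24.9 CPM at 5 to 10 Mb, and Spearman's rho of the absolute fold change with level was -0.71 in hippocampus and -0.45 in cerebellum, against -0.37 in hippocampus and -0.24 in cerebellum with distance. Kcnh1 and Hsd11b1, left out by the rule, also lie within 1 Mb of Syt14 and enter none of these values. Their highest library had 86.6 CPM for Kcnh1 and 54.8 CPM for Hsd11b1. The part of level in the trend with distance was not tested beyond a filter on level. With the members that reached 5 CPM in at least 3 libraries alone, the 4 bins gave 0.12, 0.064, 0.073 and 0.058 in hippocampus and 0.083, 0.040, 0.060 and 0.043 in cerebellum. The nearest of these bins held 8 members. In hippocampus 6 of the 8 had a negative log2 fold change, beside 49.8% of outside genes at the same level. In cerebellum 5 of the 8 did, beside 49.3%. In the farther bins, in order, 6 of 15, 4 of 6 and 11 of 18 were negative in hippocampus. In cerebellum 7 of 15, 6 of 6 and 10 of 18 were.

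**Figure D3:**
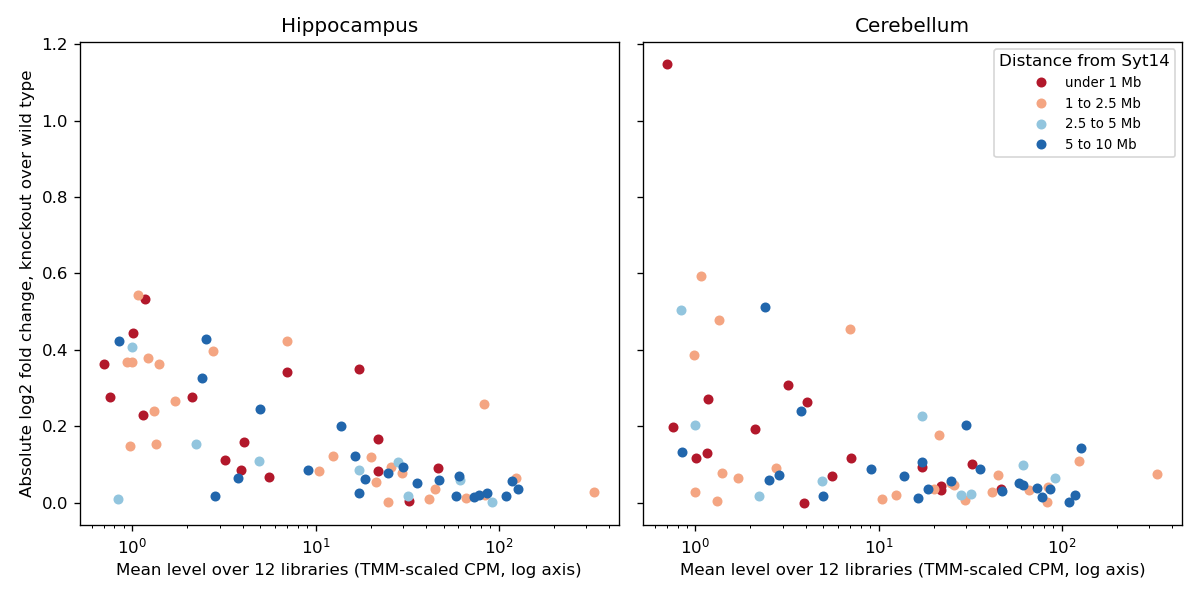
Absolute log2 fold change of knockout over wild type (vertical axis) against the mean level over 12 libraries in CPM (horizontal log axis) for each member, colored by distance from Syt14, in hippocampus (left) and cerebellum (right). The largest absolute fold changes are at levels near 1 CPM, where many members within 1 Mb lie.

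Between the tissues the neighbourhood was far from uniform. In knockout mice 44 of 73 members were called, 27 higher and 17 lower in hippocampus than in cerebellum, or 60.3% beside 64.1% of 18200 genes (31.6% higher and 32.5% lower). In wild-type mice 50 of 73 were called, 28 higher and 22 lower, or 68.5% beside 66.1% of 18128 genes (33.1% higher and 33% lower). The members were called in both genotypes in 43 cases, with the same sign in each of them, in knockout alone in 1 and in wild type alone in 7. The 1 was Gm37422, whose log2 difference was 0.52 ± 0.16 in knockout and 0.37 ± 0.18 in wild type. Across members the tissue differences in knockout and in wild type had a Pearson correlation of 0.96, described over 73 genes, beside 0.97 outside. They had the same sign in 59 of 73, or 80.8%, beside 92.2% of outside genes. These values were not matched for level, whose median was 16.3 CPM for members and 21.4 CPM for outside genes. The predicted genes Gm8407 and Gm2061 were among the most positive differences, at 3.14 ± 0.34 and 1.89 ± 0.20 in knockout and 2.98 ± 0.47 and 1.72 ± 0.21 in wild type. Calls in 1 genotype alone were not tested for a difference between genotypes other than by the interaction above, which called no member.

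**Figure D4:**
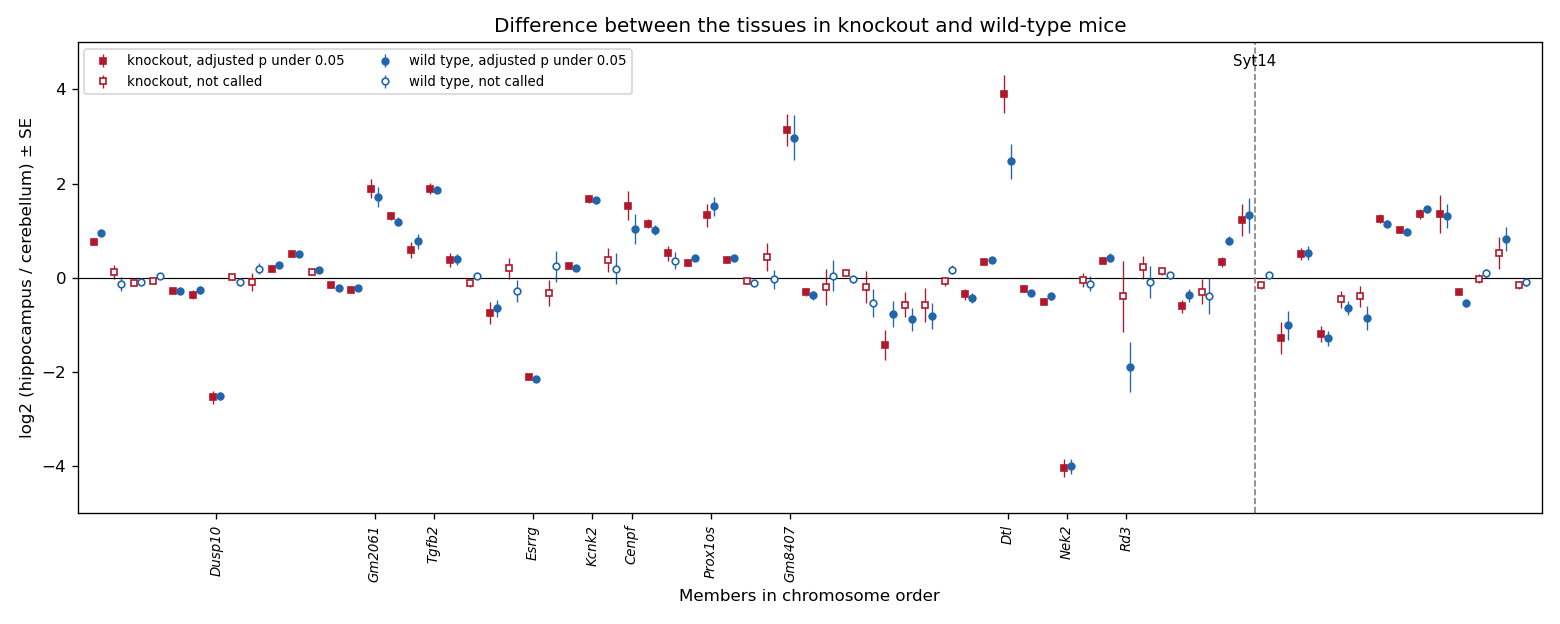
Log2 ratio of hippocampus over cerebellum with its SE for the 73 members in chromosome order (a dashed line marks Syt14), in knockout (squares) and wild-type mice (circles); filled symbols passed an adjusted p under 0.05. Members with an absolute log2 ratio of 1.5 or more in either genotype are named on the axis. Nek2, Dusp10 and Esrrg lie far below zero and Gm8407, Dtl and Tgfb2 far above it in both genotypes.

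All 5 members of the axon, channel and synapse list were called higher in hippocampus than in cerebellum in both genotypes, and their median log2 difference was 1.02 in knockout and 0.98 in wild type. Over all genes 31.6% were called higher in knockout and 33.1% in wild type. The list was chosen with earlier results of these data known, so its count is a description only. Kcnk2, a background potassium channel, had 49.9, 42.7 and 53.3 CPM in knockout hippocampi and 15.5, 15.4 and 14.6 CPM in knockout cerebella, against 47.5, 46.2 and 50.7 CPM in wild-type hippocampi and 16.2, 15.8 and 14.2 CPM in wild-type cerebella. Its tissue difference was 1.67 ± 0.089 in knockout and 1.65 ± 0.071 in wild type on the log2 scale (edgeR adjusted p = 1.90e-07 in knockout and 2.98e-10 in wild type). Plxna2, a semaphorin receptor of growing axons, averaged 161 ± 2.69 CPM in knockout hippocampi and 79.3 ± 7.01 CPM in knockout cerebella, against 169 ± 6.03 CPM in wild-type hippocampi and 85.7 ± 9.29 CPM in wild-type cerebella. Camk1g, a calmodulin-dependent kinase, had log2 differences of 1.26 ± 0.091 in knockout and 1.15 ± 0.072 in wild type. Smaller differences belonged to Rab3gap2, a subunit of the complex that acts on Rab3 (0.51 ± 0.051 in knockout, 0.51 ± 0.063 in wild type), and Mark1, a kinase of microtubule-binding proteins (0.20 ± 0.052 in knockout, 0.26 ± 0.054 in wild type). The genotype effects of these 5 genes lay between -0.064 and 0.084 on the log2 scale in hippocampus and between -0.11 and 0.039 in cerebellum.

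Kinases, phosphatases and their subunits split both ways, 5 called higher and 3 lower in hippocampus of 9, in each genotype. Nek2 had the steepest difference of the neighbourhood, at -4.04 ± 0.20 in knockout and -4.00 ± 0.16 in wild type on the log2 scale, with a level in cerebellum of 13.4 to 16.1 CPM in knockout and 10.5 to 11.6 CPM in wild type. Dusp10, which inactivates stress-activated MAP kinases, had 4.36, 5.31 and 6.41 CPM in knockout hippocampi and 27.1, 34.8 and 31.5 CPM in knockout cerebella, against 5.19, 5.78 and 5.91 CPM in wild-type hippocampi and 33.0, 31.2 and 31.7 CPM in wild-type cerebella. Its difference was -2.54 ± 0.14 in knockout and -2.50 ± 0.086 in wild type (edgeR adjusted p = 2.69e-07 in knockout and 3.20e-11 in wild type). Ptpn14, a tyrosine phosphatase, ran the other way, with 1.15 ± 0.093 in knockout and 1.02 ± 0.10 in wild type. The transcription and chromatin list had 2 members called higher and 4 lower in hippocampus of 7 in each genotype. Esrrg, an orphan nuclear receptor, averaged 22.3 ± 0.965 CPM in knockout hippocampi and 96.3 ± 3.88 CPM in knockout cerebella, against 23.3 ± 0.865 CPM in wild-type hippocampi and 103 ± 6.83 CPM in wild-type cerebella. Its difference of -2.11 ± 0.057 in knockout and -2.14 ± 0.063 in wild type was among the 3 most negative of the neighbourhood. Sertad4 was higher in hippocampus in both genotypes, by 0.34 ± 0.10 in knockout and 0.79 ± 0.087 in wild type, its values in knockout hippocampi lying nearer to those in cerebellum.

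Secreted signals and the genes that process them had 2 members called higher and 1 lower in hippocampus of 7. Tgfb2, a growth factor of the TGF-beta family, had 54.4, 62.5 and 48.4 CPM in knockout hippocampi and 13.3, 16.7 and 14.3 CPM in knockout cerebella, against 56.8, 59.9 and 54.9 CPM in wild-type hippocampi and 15.8, 17.1 and 14.2 CPM in wild-type cerebella. The log2 difference was 1.89 ± 0.11 in knockout and 1.87 ± 0.075 in wild type. Lamb3 was lower in hippocampus, at -1.19 ± 0.17 in knockout and -1.28 ± 0.16 in wild type. In the immune list, in each genotype, only Cd34, a sialomucin of endothelium and blood progenitors, was called, 1 of 4. It averaged 41.5 ± 6.26 CPM in knockout hippocampi and 16.2 ± 0.702 CPM in knockout cerebella, against 44.0 ± 4.58 CPM in wild-type hippocampi and 16.1 ± 0.386 CPM in wild-type cerebella, while the endothelial marker sum was 229 to 304 CPM in hippocampus and 287 to 324 CPM in cerebellum. The complement inhibitor Cr1l had log2 differences of -0.16 ± 0.072 in knockout and -0.098 ± 0.068 in wild type.

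Of 7 translation and RNA genes, 1 was called higher and 2 lower in hippocampus in knockout and 2 higher and 2 lower in wild type, with log2 differences of -0.27 to 0.38 in knockout and -0.33 to 0.39 in wild type. Transport and lipid genes had 3 called higher and 4 lower of 9 in each genotype. Slc30a10 was higher in hippocampus by 1.31 ± 0.085 in knockout and 1.19 ± 0.093 in wild type on the log2 scale, and Slc30a1, a zinc exporter, by 0.36 ± 0.050 in knockout and 0.43 ± 0.095 in wild type. Lpgat1, an acyltransferase of phospholipid metabolism, had the highest level per length of all members when averaged over the 12 libraries. It reached 36.5 ± 0.691 CPM per kb of exon in knockout hippocampi, 37.3 ± 1.24 in wild-type hippocampi, 51.7 ± 1.71 in knockout cerebella and 49.2 ± 5.67 in wild-type cerebella, with a tissue difference of -0.51 ± 0.047 in knockout and -0.39 ± 0.070 in wild type. Susd4 followed over the 12 libraries, at 41.9 ± 0.822 CPM per kb in knockout and 43.0 ± 1.24 in wild-type hippocampi. In cerebella Susd4 had 24.5 ± 0.982 CPM per kb in knockout and 22.2 ± 1.03 in wild-type animals. Rd3 differed by -0.39 ± 0.75 in knockout, where it was not called, and by -1.89 ± 0.53 in wild type, beside the choroid plexus sums given above. Prox1os, the antisense transcript of Prox1, was higher at 1.33 ± 0.24 in knockout and 1.52 ± 0.20 in wild type, and reads from the pair cannot be told apart where they overlap.

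**Figure D5:**
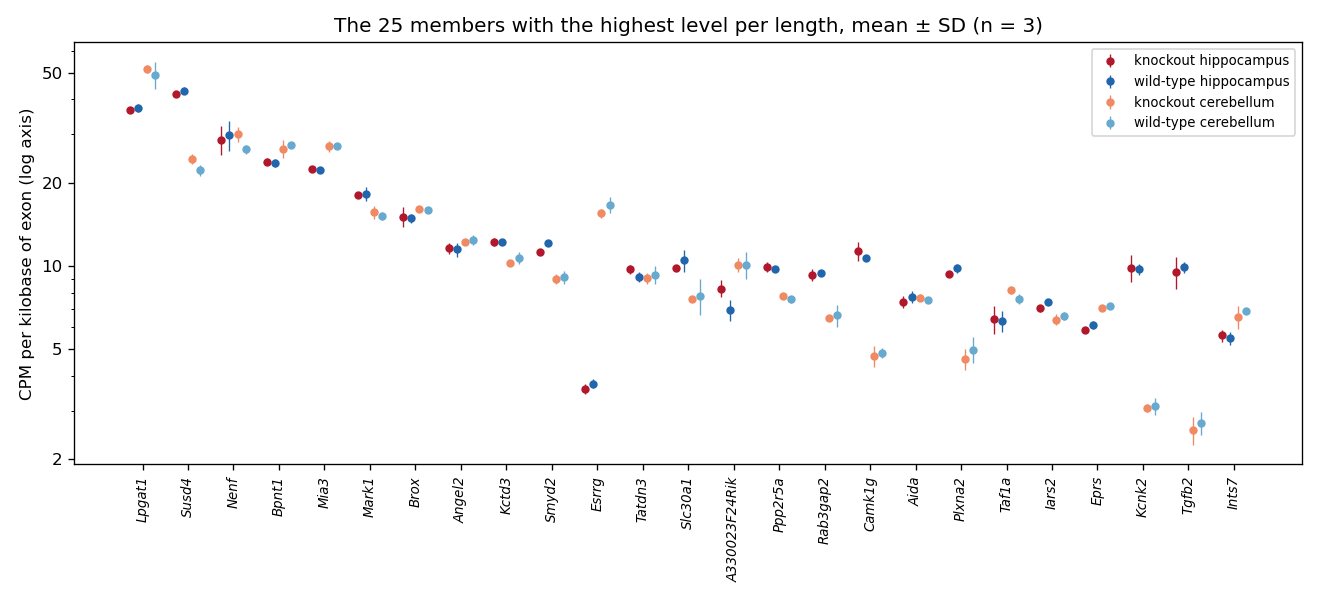
Level per kb of exon (CPM per kb, log axis) of the 25 members with the highest values, mean ± SD of 3 animals, in knockout hippocampus, wild-type hippocampus, knockout cerebellum and wild-type cerebellum. Knockout and wild-type points of a tissue lie close together, and the tissues are apart for Esrrg, Kcnk2, Tgfb2, Camk1g, Plxna2 and Susd4.

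Dtl, of the cell division list, and Ints7, of the translation and RNA list, share the printed promoter but not their tissue pattern. Dtl had 2.18, 1.80 and 3.48 CPM in knockout hippocampi and 0.221, 0.170 and 0.0996 CPM in knockout cerebella, against 1.38, 1.79 and 2.60 CPM in wild-type hippocampi and 0.198, 0.458 and 0.334 CPM in wild-type cerebella, with log2 differences of 3.90 ± 0.40 in knockout and 2.48 ± 0.37 in wild type. Few cerebellar reads lie behind the Dtl values, and the genotype effect in hippocampus minus that in cerebellum, 1.43 ± 0.61, was not called (edgeR adjusted p = 0.918). Ints7 had 42.3, 42.3 and 38.7 CPM in knockout hippocampi and 45.5, 45.1 and 53.2 CPM in knockout cerebella, against 40.5, 37.8 and 42.1 CPM in wild-type hippocampi and 50.3, 49.9 and 51.0 CPM in wild-type cerebella, and was lower in hippocampus, at -0.23 ± 0.076 in knockout and -0.33 ± 0.056 in wild type. The genotype effect in hippocampus was 0.38 ± 0.30 for Dtl and 0.036 ± 0.064 for Ints7. Cenpf, a kinetochore protein of dividing cells, was higher in hippocampus, at 1.53 ± 0.31 in knockout and 1.03 ± 0.32 in wild type. The cell division list had 2 members called higher and 1 lower in hippocampus of 4 in each genotype, Nek2 being the lower one. In the pair Tatdn3 and Nsl1, whose starts lie 80 bases apart, Tatdn3 averaged 27.1 ± 0.949 CPM in knockout and 25.4 ± 1.04 CPM in wild-type hippocampi. Its partner Nsl1, a kinetochore subunit, averaged 0.982 ± 0.234 CPM in knockout and 0.767 ± 0.139 CPM in wild-type hippocampi. The tissue difference of Nsl1 was -0.20 in knockout and -0.53 in wild type on the log2 scale, not called in either. The pairs Brox and Aida, Gm2061 and Slc30a10, 1700034H15Rik and Slc30a1, and Gm16897 and A330023F24Rik overlap in their first bases. Since 41 of the 73 members overlap a gene on the opposite strand, and the strand setting of the counting is not given, reads from such pairs cannot be told apart where they overlap.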

How the data were processed

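The series holds 12 RNA sequencing libraries, from 2 brain regions of 6 mice. The deposited values are raw read counts per gene, made by the authors. Of tools, the submitters' processing notes list featureCounts 2.0.3, STAR 2.7.10 and Trimmomatic 0.39, and of builds GRCm38 and mm10. Which annotation was counted, and with what strand setting, is not given in the sources used. Symbols, positions and exon lengths came from GENCODE M21, which held 54409 of the 54446 gene identifiers. Libraries held 24355572 to 34971359 counts, and intervals from the fits cover variation between animals. No pair of libraries of a group was identical (chi-square per gene 3.91 to 11.6). The labels' animal numbers show that each animal gave both tissues. Replicates are separate animals.

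Tests used edgeR 4.0.16 in R 4.3.3 on the counts as deposited, over all genes: filterByExpr (minimum count 10, minimum total 15), TMM factors, quasi-likelihood fit, two-sided test and Benjamini-Hochberg adjustment, calling genes at an adjusted p under 0.05. Genotypes were compared within a tissue and tissues within a genotype. The counts of each animal's tissues were added for a test per animal, and the difference between tissues was fitted over 12 libraries. The fits between tissues and over 12 libraries did not use the pairing of libraries by animal. In the alternative called the replicate block, those fits included the animal. The script was tested on simulated data. Animals of a group varied by 7.54% in hippocampus and 8.23% in cerebellum (common biological coefficient of variation). Groups were said not to overlap where every TMM-scaled CPM of one lay above every one of the other. Alternatives used DESeq2 1.42.0 and limma 3.58.1. Tables were made with Python 3.11.15 and pandas 2.3.3.

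The members, role lists and marker lists were chosen with earlier results of these data known. Members named are the 5 nearest to Syt14 on each side, the 6 with the smallest genotype p in each tissue, the 6 with the largest tissue difference in each direction in wild type (Gm, Rik and -ps names being passed over in both rankings), the one with the highest level per length, and examples of role lists and head-to-head pairs, with 1 member not reported here. Others were chosen after their values were seen. Whether replicate numbers pair libraries was checked by the correlation of deviations from group means. Same-numbered genotypes gave 0.15 to 0.34 in cerebellum, where every pair passed 0.1, and -0.013 to 0.13 in hippocampus, where they did not. The tissues of an animal are paired by the labels.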

Additional observations from a re-analysis of the deposited data

How the results depend on the processing

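The count of members called by genotype stayed at 0 in both tissues under other scaling factors, DESeq2, limma-voom, other filters, a fit over all 12 libraries and leaving out single animals, with 1 exception. With no filter on low counts, 1 member was called in hippocampus (A330023F24Rik, adjusted p = 0.0133) and 2 in cerebellum (Nek2, adjusted p = 0.00394, and Rd3, adjusted p = 0.0212, both by edgeR). Over all genes that setting called 77 of 31868 in hippocampus and 417 of 32360 in cerebellum, where the main fit called 0 and 2. The settings that called 0 members called 0 to 4 genes in hippocampus and 2 to 37 in cerebellum. The replicate block called 0 members in either tissue and changed no member's genotype call, while over all genes it called 2 in hippocampus, 36 in cerebellum and 57 with tissues summed, beside 0, 2 and 0 without it. Under the block, 42 members differed between tissues in knockout and 51 in wild type, beside 44 in knockout and 50 in wild type without it. Over all genes the block called 11244 of 18200 in knockout and 11948 of 18128 in wild type, beside 11664 and 11986 without it. Leaving out single libraries gave 39 to 44 members in knockout and 45 to 51 in wild type. Those fits called 10840 to 11378 genes in knockout and 11360 to 11601 in wild type, of 18500 to 18793 tested. The median absolute log2 fold change in hippocampus was 0.12 in a 5 Mb window, 0.16 in a 2 Mb window and 0.069 for members that reached 5 CPM in at least 3 libraries, and ranged from 0.090 to 0.12 when single animals were left out. In cerebellum it was 0.047 at that level and ranged from 0.057 to 0.091. The cause of these shifts was not tested. Leaving out single animals changed the sign of the log2 fold change of some uncalled near neighbours. In hippocampus Rcor3 ranged from -0.039 to 0.042 (0.0084 without wild-type animal 1), A130010J15Rik from -0.033 to 0.13 and Hhat from -0.13 to 0.77. In cerebellum Hhat ranged from -0.023 to 0.29, Gm2367 from -0.46 to 0.11 and A130010J15Rik from -0.013 to 0.14. With scaling factors from 1 tissue alone, chosen after seeing the data, 6 of 73 members did not overlap in hippocampus, beside 9.75% of outside genes, and 7 of 71 in cerebellum, beside 12%. Members under 5 CPM have wide errors, and 3 animals per group limit what could be detected.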
